A study of Bos taurus with 6 samples.

Results

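The miR-181 family was examined in cultured bovine granulosa cells, the somatic cells that line the ovarian follicle and support the oocyte. Its members were chosen by name: bta-miR-181a, bta-miR-181b, bta-miR-181c and bta-miR-181d, which are 4 of the 1028 miRNAs listed for each library. No other row carries a miR-181 name, and no passenger strand of the family is listed. The cells were aspirated from follicles of 3 to 6 mm in slaughterhouse ovaries and grown for 24 h in medium with 10% exosome-depleted serum. They were then held for a further 24 h at 37 °C (control, 3 libraries) or at 42 °C (heat stress, HS, 3 libraries). The study describes the libraries of a group as biological triplicates, and the titles only number them. How many animals a replicate pools is not stated, so p-values measure the spread between these libraries.

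miRNAs of a family share a seed, the stretch near the 5′ end that pairs with target mRNAs, and so are able to bind overlapping sets of targets. The miR-181 family is known from lymphocyte development and from cell stress. HSPA5, which encodes GRP78, the main chaperone of the endoplasmic reticulum, is among its reported targets, as is the activin receptor gene ACVR2A in granulosa cells of the mouse, where activin promotes proliferation. Target mRNAs were not measured in these libraries.

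In cattle, as in other mammals, 6 precursor genes encode the 4 mature miRNAs, since bta-miR-181a and bta-miR-181b each come from 2 genes. In RefSeq (ARS-UCD2.0) the 6 genes matched by name and formed 3 pairs with no other annotated gene lying wholly between the partners: MIR181A-1 with MIR181B-1, MIR181A-2 with MIR181B-2, and MIR181C with MIR181D. The pairs lie on 3 different chromosomes. MIR181A-2 and MIR181B-2 overlap NR6A1, a nuclear receptor gene, and the lncRNA LOC100848407. MIR181C and MIR181D overlap NANOS3, a gene known for germ cell maintenance, and the first pair overlaps no annotated gene. HSPA5 is on the same chromosome as MIR181A-2 and MIR181B-2, with 8 protein-coding genes wholly between it and that pair. Reads of bta-miR-181a or bta-miR-181b cannot be traced to one gene or the other here.

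The family was present in every library, but its members differed widely in level. Levels are given as normalised CPM, that is, read counts after TMM scaling, which sets the libraries to a common size by the bulk of their miRNAs. bta-miR-181a averaged 889.1 ± 107.4 normalised CPM and bta-miR-181b 496.3 ± 54.4 over all libraries (SD, n = 6). bta-miR-181d averaged 15.2 ± 3.87 and bta-miR-181c 7.86 ± 1.52. Ranked by mean level among all miRNAs, they held places 82, 98, 260 and 286 in the same order.

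**Figure D1:**
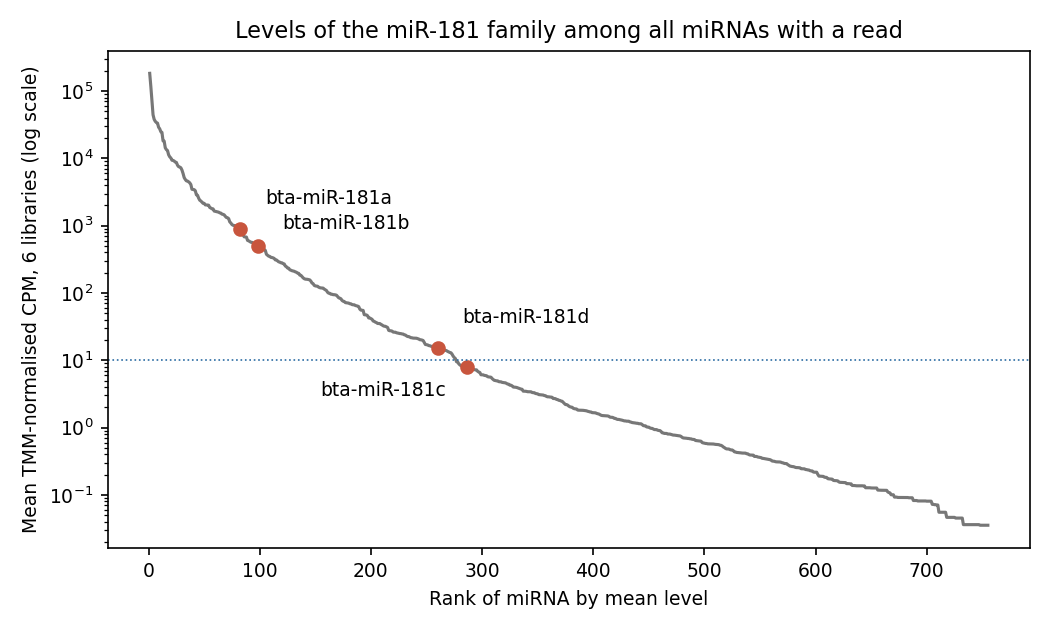
Mean normalised CPM over the 6 libraries (log scale) against rank for the 755 miRNAs with at least 1 read, with the miR-181 family as red points and the detection minimum of 10 as a dotted line. bta-miR-181a and bta-miR-181b sit at places 82 and 98, and bta-miR-181d and bta-miR-181c on both sides of the minimum, at places 260 and 286.

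The order bta-miR-181a, bta-miR-181b, bta-miR-181d, bta-miR-181c was the same in 6 of 6 libraries. bta-miR-181a exceeded bta-miR-181b by at least 1.68 times, with a median of 1.77, and their ranges did not overlap in either group. bta-miR-181b exceeded bta-miR-181d by 22.9 to 52.5 times. bta-miR-181d exceeded bta-miR-181c by 1.37 to 2.55 times within a library, although in control cells their ranges overlapped. The steps were taken from the order seen in these libraries and are given as a description, with no test. Such comparisons are between numbers of reads, and the efficiency with which the library chemistry captures each sequence was not tested. The members are nearly identical in sequence, and how reads that fit several of them were assigned is not stated, so the split between members is uncertain to that extent.

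Almost all reads of the family belonged to the more abundant members. Together bta-miR-181a and bta-miR-181b held 98.6% ± 0.339 of the family's reads in the control libraries and, in those of HS, 98.1% ± 0.443 (SD over 3 libraries for each). bta-miR-181a alone held 61.7% to 66% across the libraries. The family as a whole took 0.149% ± 0.00805 of all miRNA reads in control and 0.133% ± 0.0195 in HS cells. The values were 0.158%, 0.144% and 0.145% in control replicates 1, 2 and 3. In HS replicates 1, 2 and 3 they were 0.116%, 0.154% and 0.128%. HS replicate 2 thus lay among the control libraries, and the groups overlapped. When miRNAs were pooled by the number in their names, miR-181 was in place 55 of 689 families, between miR-497 and miR-574.

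The study counted a miRNA as detected in a group when its normalised read count reached 10 in at least 2 of the 3 libraries. By this rule bta-miR-181a, bta-miR-181b and bta-miR-181d were detected in both groups. bta-miR-181c reached 10 in 1 control library and in 0 HS libraries, so it was detected in neither. It was nevertheless read in each library, with 22 to 39 reads, above a floor set at 3 reads (0.639 to 1.465 normalised CPM, depending on the library).

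To see how the members behaved from library to library, their values were compared one by one. In control replicates 1, 2 and 3, bta-miR-181a stood at 1021, 935 and 892.4 normalised CPM, on 2091, 4304 and 3203 reads. In HS replicates 1, 2 and 3 it had 750.2, 962.9 and 773.1, on 2261, 3541 and 3632 reads. HS replicates 1 and 3 lay below every control library, while HS replicate 2 lay between control replicates 1 and 2.

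The normalised CPM of bta-miR-181b was 555.1, 467.3 and 532.2 in control replicates 1, 2 and 3. In HS replicates 1, 2 and 3 it was 425.4, 544.7 and 453.4. Again HS replicates 1 and 3 were below all control libraries and HS replicate 2 was not. For both miRNAs the spread between replicates was wider than counting alone gives: the coefficient of variation in control cells was 6.89% for bta-miR-181a and 8.79% for bta-miR-181b, where counting error gives 1.85% and 2.5%.

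At the low end, bta-miR-181c reached 10.7, 6.52 and 7.24 normalised CPM in control replicates 1, 2 and 3. Its HS replicates 1, 2 and 3 gave 7.30, 7.07 and 8.30. Control replicate 1, the library with the fewest miRNA reads, was the highest of the 6, on 22 reads with an exact 95% Poisson interval of 13.8 to 33.3. The 3 HS values lay within the control range. Their coefficient of variation was 8.66%, below the 19.1% that counting error gives.

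For bta-miR-181d, control replicates 1, 2 and 3 gave 17.6, 8.91 and 13.1 normalised CPM, on 36, 41 and 47 reads. In HS replicates 1, 2 and 3 it had 18.6, 14.1 and 18.7, on 56, 52 and 88 reads. HS replicates 1 and 3 were above each control library, but HS replicate 2 was below control replicate 1, so the groups overlapped. Poisson intervals cover counting error only.

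**Figure D2:**
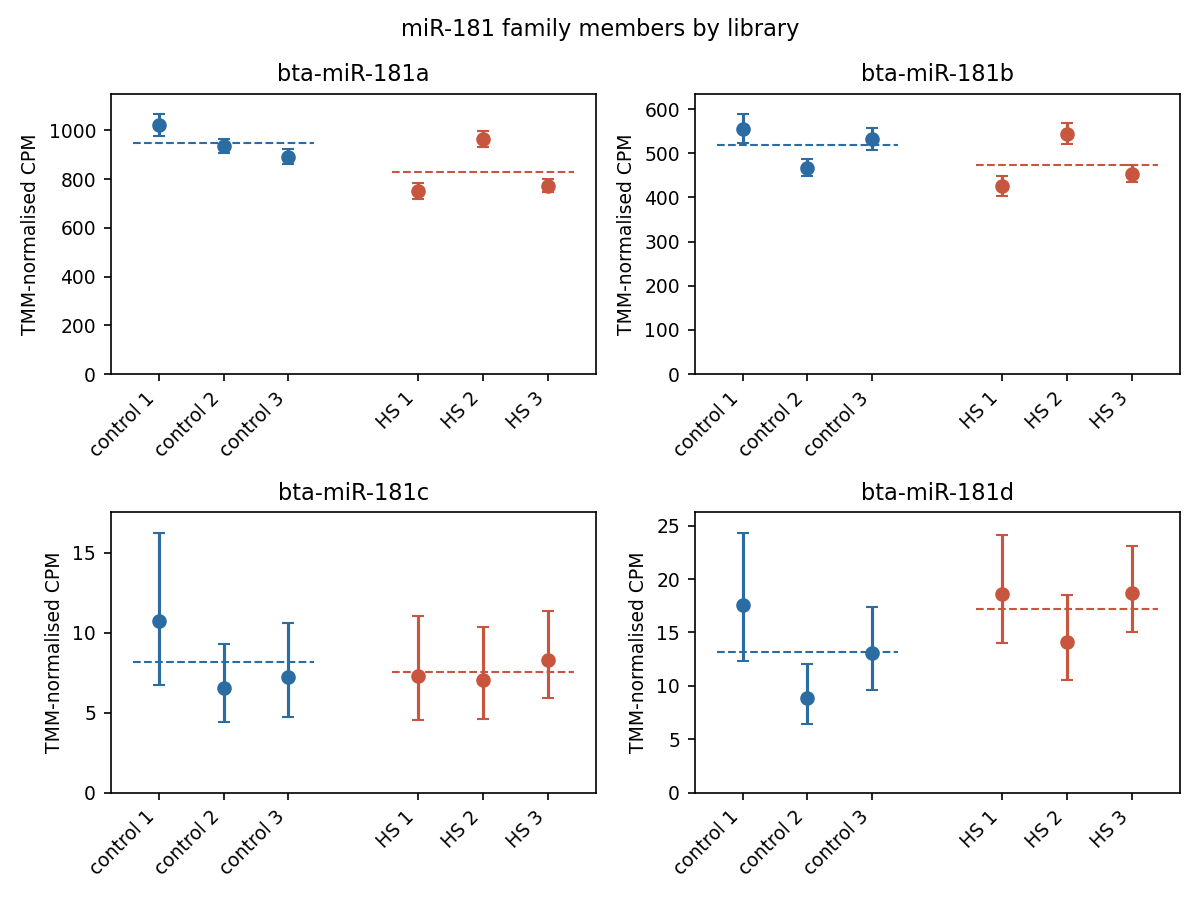
Normalised CPM of each member in the 3 control (blue) and 3 HS libraries (red), with exact 95% Poisson intervals as bars and group means as dashed lines; every vertical axis starts at 0. The groups overlap for all 4 members, with HS replicate 2 among the control values of bta-miR-181a and bta-miR-181b.

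Whether the family responded to HS was tested with limma over the 365 miRNAs that passed the filter on low reads, which included all 4 members. No member passed. The study called a miRNA changed when its log2 fold change was 1 or more in size and its adjusted p no higher than 0.2, which 0 of 4 members met, against 3.01% of all miRNAs tested. At an adjusted p under 0.05, 0 of 4 passed (2.19% of all tested), and even before adjustment 0 of 4 had a p under 0.05 (14.5% of all tested). The edgeR quasi-likelihood and exact tests, limma-voom and the DESeq2 Wald test, run on recovered reads, also gave 0 of 4 at each of these thresholds. Control and HS values did not overlap for 0 of 4 members, compared with 20% of all miRNAs tested. In these bulk libraries fewer cells of a type and less miRNA per cell cannot be told apart.

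The mean of bta-miR-181a was 949.4 ± 65.4 normalised CPM in control against 828.7 ± 116.8 in HS libraries (SD, n = 3). Its log2 fold change, taken throughout as HS relative to control on the log2(value + 1) scale, was -0.20 ± 0.144 (SE, limma adjusted p = 0.619). The 95% interval ran from -0.54 to 0.14. bta-miR-181b went from 518.2 ± 45.5 to 474.5 ± 62.4, or -0.13 on the log2 scale, with an interval of -0.49 to 0.23 (limma adjusted p = 0.835). Without HS replicate 2 the log2 fold changes of bta-miR-181a and bta-miR-181b were -0.32 and -0.23, without HS replicate 1 that of bta-miR-181b was -0.056, and without control replicate 2 it was -0.20. Upper quartile scaling, which moved the median of all tested miRNAs to -0.18, gave -0.39 and -0.32. The limma intervals given for these abundant members left out a log2 change of 1 in either direction, as did that of bta-miR-181c.

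The scarce members were measured less precisely. bta-miR-181c went from 8.17 ± 2.26 to 7.56 ± 0.654 normalised CPM, with a log2 fold change of -0.07 and an interval of -0.63 to 0.48 (limma adjusted p = 0.959). Without control replicate 1 its log2 fold change was 0.12, so its direction rested on that library. bta-miR-181d was the only member with a higher mean in HS cells, 17.2 ± 2.61 against 13.2 ± 4.34. Its log2 fold change was 0.39 ± 0.276 (SE, limma adjusted p = 0.614), and the interval of -0.26 to 1.05 contained both 0 and 1. Without control replicate 1 it was 0.61 (limma adjusted p = 0.29), and without control replicate 2 it was 0.16 (limma adjusted p = 0.811). Its coefficient of variation in control cells was 32.9%, where counting error gives 15.6%.

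Of the members, 3 had a log2 fold change below 0, compared with 184 of all 365 miRNAs tested. The median log2 fold change of the members was -0.10 and that of all tested miRNAs -0.0015. The median size of the change was 0.17 for the members and 0.20 for all tested. Among the miRNAs within 2-fold of each member's level, 18 of 45 had a larger log2 change than bta-miR-181a, 28 of 43 than bta-miR-181b, 55 of 70 than bta-miR-181c and 24 of 71 than bta-miR-181d.

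**Figure D3:**
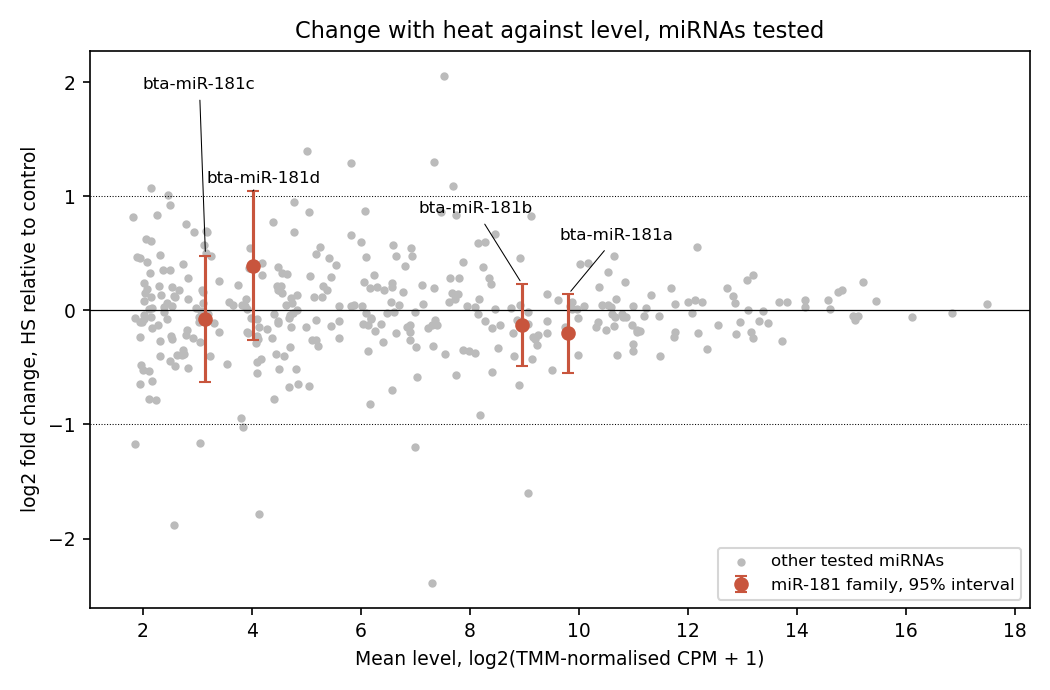
log2 fold change in HS relative to control cells against mean level, log2(normalised CPM + 1), for the 365 miRNAs tested (grey), with the miR-181 family in red and limma 95% intervals as bars; dotted lines mark a log2 change of 1 in either direction. All 4 intervals cross 0, and that of bta-miR-181d, from -0.26 to 1.05, is the widest.

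To ask whether the members changed by different amounts, the ratio of each pair was taken within each library. Plain ratios are those of the reads and do not depend on the scaling between libraries. Log2 ratios were taken on the log2(value + 1) scale. For scarce members they therefore depend in part on the scaling and on the added 1. The 6 pairs were compared between the groups by exact two-sided permutation tests of the log2 ratios, for which the smallest possible p is 0.1. No pair could therefore reach 0.05, and the tests cannot show whether the members changed by different amounts. The adjusted p-values ran from 0.6 to 1 over the 6 pairs. The ratio of bta-miR-181a to bta-miR-181b was nearly constant, with 1.84 ± 0.162 in the control libraries and 1.75 ± 0.035 in the HS libraries (SD, n = 3). The log2 ratio differed by -0.07 ± 0.0754 (SE), less than its SD of 0.127 between control replicates (exact permutation test, p = 0.5, adjusted p = 0.72). It was -0.0091 without control replicate 2 and -0.14 without control replicate 3.

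The 3 log2 ratios with bta-miR-181d in them had larger differences between the groups than the 3 without it. bta-miR-181c to bta-miR-181d was 0.611, 0.732 and 0.553 in control replicates 1, 2 and 3. HS replicates 1, 2 and 3 had 0.393, 0.5 and 0.443. Every HS library was below every control library. On the log2(value + 1) scale the difference was -0.47 ± 0.147 (SE), which reached the smallest p of the design (exact permutation test, p = 0.1, adjusted p = 0.6). With 0.5 or 5 added in place of 1 the difference was -0.48 or -0.36. With 1 added it kept its sign without each library in turn, from -0.55 to -0.36. Counting error was large beside it. bta-miR-181c made up 38.6% ± 3.37 of the reads of this pair in control libraries (SD, n = 3) and 30.7% ± 2.56 in those of HS, but the exact 95% binomial intervals of the libraries overlapped, such as 30.6% to 54.6% in control replicate 2 and 18.6% to 39.5% in HS replicate 1. The ratios of bta-miR-181a and bta-miR-181b to bta-miR-181d differed by -0.59 and -0.52 on the log2(value + 1) scale, with overlapping groups (exact permutation tests, p = 0.3 and 0.2, adjusted p = 0.6 for both). Without control replicate 2 the first was -0.37.

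**Figure D4:**
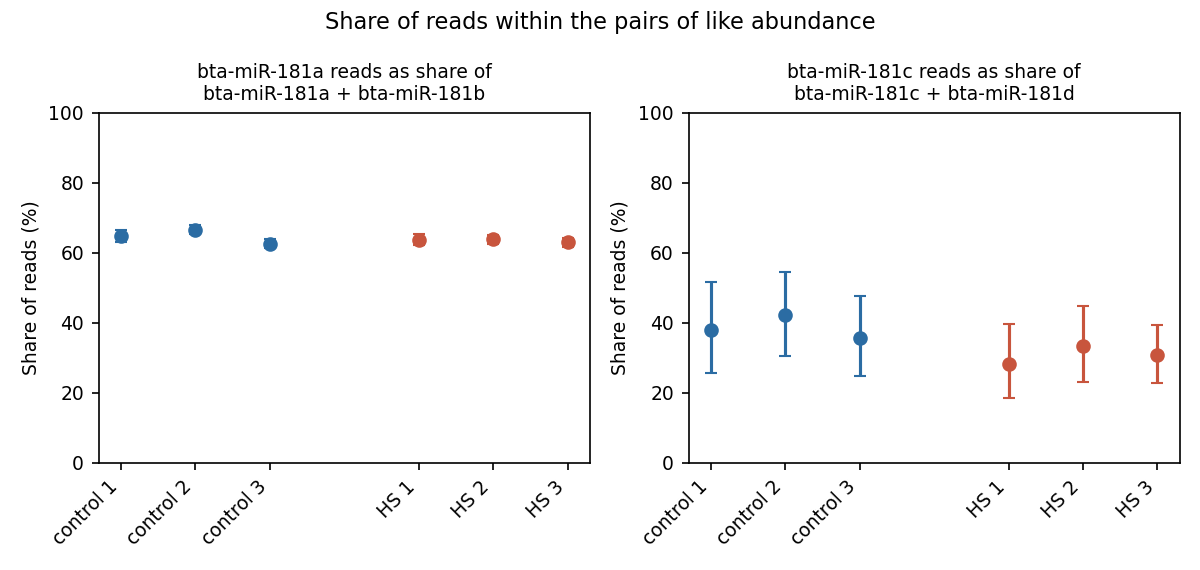
Share of reads (%) that bta-miR-181a took of its own and the bta-miR-181b reads (left) and bta-miR-181c of its own and the bta-miR-181d reads (right) in each control (blue) and HS library (red), with exact 95% binomial intervals. On the left the libraries lie between 62.6% and 66.7%; on the right the HS libraries, 28.2% to 33.3%, lie below the control libraries, 35.6% to 42.3%, with overlapping intervals.

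How closely the members followed each other was described by the SD over the 6 libraries of their log2 ratio, where a small SD means that they kept step. bta-miR-181a and bta-miR-181b had an SD of 0.0914, which put bta-miR-181b in place 3 of 364 tested miRNAs by likeness to bta-miR-181a, and bta-miR-181a in place 4 by likeness to bta-miR-181b. These are the members encoded side by side in 2 of the gene pairs. bta-miR-181c and bta-miR-181d, the partners of the third pair, had an SD of 0.301. bta-miR-181c was in place 27 by likeness to bta-miR-181d, and bta-miR-181d in place 113 by likeness to bta-miR-181c, on 22 to 88 reads per library. bta-miR-181c was nearer to bta-miR-181b and bta-miR-181a, encoded elsewhere, at 0.225 and 0.249 (places 42 and 60). The SDs of bta-miR-181d with bta-miR-181b and bta-miR-181a were 0.434 and 0.489. The ratio of bta-miR-181a to the tested miRNAs outside the family had a median SD of 0.356. All of these SDs use the same 6 libraries, and those of scarce miRNAs include more counting error.

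Outside the family, the miRNAs closest to bta-miR-181a were bta-miR-331-3p, bta-miR-339b and bta-miR-223, with SDs of 0.0742, 0.0873 and 0.0944. bta-miR-331-3p went from 434 to 354.7 normalised CPM across the control libraries and from 395.4 to 331.8 across the HS libraries, highest like bta-miR-181a in replicate 1 of the control and replicate 2 of the HS cells. Those closest to bta-miR-181b were bta-miR-769, bta-miR-361 and bta-miR-423-3p, with SDs of 0.0844, 0.0878 and 0.09. bta-miR-361 is the reference that the study used for droplet PCR. Nearest to bta-miR-181d was bta-miR-2285bc, at 0.0732, which stood at 20.5, 11.1 and 14.8 normalised CPM in control replicates 1, 2 and 3. HS replicates 1, 2 and 3 gave 19.9, 16.6 and 20.2 for it. bta-miR-6123 and bta-miR-11995 followed at 0.178 and 0.186. For bta-miR-181c the nearest were bta-miR-15b, bta-miR-6520 and bta-miR-2450c, at 0.141, 0.145 and 0.153. These 12 miRNAs were picked for a steady ratio to a member over control and HS libraries together. That 0 of them passed either threshold between the groups (limma adjusted p from 0.418 to 0.969) thus follows largely from the choice. Among all miRNAs tested, 3.01% met the rule of the study and 2.19% had an adjusted p under 0.05.

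miRNAs that share the reported roles of the family were examined beside it. Of 8 other miRNAs linked to GRP78 or the endoplasmic reticulum stress response, 7 passed the filter and 0 met the rule of the study, while 1 had an adjusted p no higher than 0.2 (7.12% of all tested). That was bta-miR-708, which is induced by the stress factor CHOP in other mammals. Its mean was 3270 ± 145 normalised CPM in control against 2473 ± 87.5 in HS libraries (SD, n = 3), or -0.40 on the log2 scale (limma adjusted p = 0.118). The fold was under the minimum of the rule. Control and HS values did not overlap for 3 of the 7 (20% of all tested), with bta-miR-708 lower and bta-miR-34a and bta-miR-199a-5p higher in HS libraries. bta-miR-30d and bta-miR-199a-5p, reported to lower GRP78 together with miR-181a, had log2 differences of -0.19 and 0.29 (limma adjusted p = 0.639 and 0.463). bta-miR-34a had 0.48 (limma adjusted p = 0.306), bta-miR-214 0.47, bta-miR-424-5p 0.16 and bta-miR-204 0.10. bta-miR-211 had 2 to 6 reads per library and was not tested. The median log2 fold change of the 7 was 0.16.

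Of 3 miRNAs reported to act on activin or SMAD signalling in granulosa cells, 0 passed either threshold. bta-miR-224, which targets SMAD4, had a log2 fold change of 0.09, bta-miR-26b -0.10 and bta-miR-145 -0.19, with limma adjusted p-values from 0.841 to 0.954. Their median was -0.10.

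Cells other than granulosa cells could contribute miRNAs of this family, so marker miRNAs of other cell types were read in the same libraries. No single miRNA defines granulosa cells, and their label could not be checked in this way. The 4 leukocyte markers summed to 700.2 to 842.7 normalised CPM in control and 613.9 to 749.2 in HS cells, with all 4 tested and 0 past either threshold. bta-miR-142-5p, the most abundant of them, had a log2 fold change of 0.01, bta-miR-150 -0.14, bta-miR-142-3p -0.22 and bta-miR-223 -0.36 (limma adjusted p from 0.418 to 0.982). Of the 4, bta-miR-223 is among the 3 miRNAs outside the family nearest to bta-miR-181a by likeness. bta-miR-142-5p, bta-miR-142-3p and bta-miR-150 are not. The SDs of their log2 values between control libraries were 0.354, 0.825 and 1.27, against 0.0984 for bta-miR-181a and 0.134 for bta-miR-223. The 2 endothelial markers summed to 228.1 to 351.6 in control and 130.8 to 265 in HS cells. Their log2 fold changes were -0.57 for bta-miR-126-3p and -0.66 for bta-miR-126-5p, below those of all 4 family members, with 0 past either threshold (limma adjusted p = 0.418 and 0.481). The 5 epithelial markers summed to 60.5 to 95.6 and 49.8 to 87, and the 3 erythroid ones, after a lysis step for red cells at isolation, to 12.5 to 52.7 and 20.9 to 62.7. Among the erythroid markers bta-miR-144 had at most 1 read in a library, and no listed marker was at 0 in all libraries. The part of such cells in the values of the miR-181 family was not tested.

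The libraries held 2076239 to 4590971 reads assigned to miRNAs, the fewest in control replicate 1. By the mapping summary of the study, that library did not have the fewest reads after quality control, but of the 6 it had the smallest share of them mapped to miRNAs, and the part of this in its values was not tested. In that library bta-miR-181a, bta-miR-181b and bta-miR-181c had their highest value of the 6, and bta-miR-181d its highest among the control libraries.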

How the data were processed

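Small RNA of 6 libraries was prepared from 100 ng of total RNA with adapters that carry unique molecular identifiers and 16 cycles of PCR. The authors trimmed reads with Cutadapt 1.11, collapsed them by identifier, mapped them with Bowtie2 2.2.2 to the Ensembl bovine genome (UMD3.1, per the labels), assigned them to miRBase miRNAs and scaled them by TMM in edgeR. The deposited signal is TMM-normalised CPM. Each value was a whole multiple of a single step within a library (100% of values, tolerance 0.01 of a read), which gave the reads. On them edgeR's quasi-likelihood test called 10 miRNAs at the study's rule (limma: 11). TMM factors implied by the values ran from 0.965 to 1.02.

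miRNAs passing filterByExpr (edgeR 4.0.16) on these reads were tested with limma 3.58.1 (lmFit, eBayes with trend; R 4.3.3) on log2(signal + 1), with Benjamini-Hochberg adjustment over all tested. The fit was tested on simulated reads. Exact permutation, Poisson and binomial calculations used Python 3.11.15 and scipy 1.17.1. Alternatives were other scalings, filters, pseudocounts and tests (DESeq2 1.42.0 among them), the replicate number as a block, and omission of each library. The text names the members, the lists of related miRNAs and of cell markers, the 3 miRNAs per member with the least variable ratio, and neighbours by level. The members and lists were chosen with earlier results of these data known. Mature sequences were not used here. Genes came from the RefSeq annotation of ARS-UCD2.0, another assembly than that of the mapping, so no positions are given.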

Additional observations from a re-analysis of the deposited data

How the results depend on the processing

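Over 19 alternatives (13 with all libraries, 6 without a library) 75 of 76 log2 fold changes of the members had the sign reported above, and 0 of 76 crossed an adjusted p of 0.2, the lowest being 0.29. The exception was bta-miR-181c, at 0.12 without control replicate 1. Leaving out each library in turn, bta-miR-181a ranged from -0.32 to -0.14, bta-miR-181b from -0.23 to -0.056, bta-miR-181c from -0.20 to 0.12 and bta-miR-181d from 0.16 to 0.61. Upper quartile factors moved the median of all tested miRNAs to -0.18 and the members to -0.39, -0.32, -0.24 and 0.22. Relative to that median they were at -0.21, -0.14, -0.06 and 0.40. The number of members past either threshold was 0 under each alternative. Without control replicate 1, bta-miR-181d had an unadjusted p of 0.0498 in limma. The difference in the family's share of reads ran from -0.027 to -0.0078 percentage points without a library, against -0.016. The log2 ratio of bta-miR-181b to bta-miR-181c, -0.06, changed sign without control replicate 2 (0.00044), control replicate 3 (0.027) or HS replicate 3 (0.034). Among all miRNAs tested, 8 had an adjusted p under 0.05, against 5 after upper quartile scaling, 13 in edgeR's exact test, 20 in DESeq2's Wald test and 2 to 12 without a library. The cause was not tested. Same-numbered libraries deviated together at 0.421, -0.117 and 0.616 for replicates 1, 2 and 3, so they were not taken as pairs. With the replicate block the members had log2 fold changes of -0.20, -0.13, -0.07 and 0.39 and adjusted p-values of 0.56, 0.756, 0.923 and 0.415, and 10 and 6 of all tested miRNAs passed the thresholds. Paired by number, the ratios of member pairs could not pass, since the smallest p of the exact sign-flip test is 0.25. bta-miR-181c and bta-miR-181d had 22 to 88 reads per library, and their coefficients of variation in control cells, 27.6% and 32.9%, were above the 19.8% and 15.6% that counting error gives.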

Other observations

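miRNAs at the same level as each member were read beside it. bta-miR-181a lay between bta-miR-185, at 913.4 ± 61.4 normalised CPM, and bta-miR-98, at 850.1 ± 179.3 (SD, n = 6). bta-miR-181b lay between bta-miR-7, at 531 ± 63.1, and bta-miR-210, a miRNA known from the response to low oxygen, at 483.9 ± 105.1. bta-miR-181d lay between bta-let-7a-3p and bta-miR-11971, at 15.8 ± 5.48 and 14.8 ± 2.02, and bta-miR-181c between bta-miR-191b and bta-miR-330, at 7.87 ± 2.98 and 7.66 ± 3. Each of these neighbours was above the member in some libraries and below it in others, so the places in the order are not fixed beyond the spread between libraries. None of the 8 had a limma adjusted p under 0.2, and bta-miR-210 was the lowest of them at 0.298, with a log2 fold change of 0.46.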
